A study of Mus musculus with 6 samples.

Results

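Lysosome and vacuolar ATPase (V-ATPase) genes of bone marrow-derived macrophages (BMDMs) were examined for 2 histone marks. The set comprised 46 listed genes of the 21951 protein-coding genes of GENCODE M21. It held 9 cathepsins, 10 other lumenal hydrolases, 3 lumenal cofactors (Psap, Grn and Npc2), 7 membrane proteins, the 3 transcription factors Tfeb, Tfe3 and Mitf, and 14 V-ATPase genes. The 14 were 5 subunits of the membrane sector V0, 8 of the catalytic sector V1 and the accessory subunit Atp6ap1. For each gene, peaks within 1 kb and within 10 kb of the transcription start site (TSS, here the 5′ end of the gene in GRCm38) were counted in each of 4 peak lists.

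The BMDMs came from C57BL/6 mice and were grown from bone marrow for 6 d in medium with L929-conditioned supernatant. For 1 h the cells received either lipopolysaccharide (LPS), which is shed by bacteria and sensed through TLR4, or PBS as the unstimulated control. CUT&RUN, in which antibody-bound nuclease cuts out the marked chromatin for sequencing, was performed for H3K4me1, H3K27ac and IgG in the search for enhancers that respond to LPS. There was 1 library per treatment and antibody, and no label gives the number of mice, which leaves every value without a replicate error and allows no test between treatments.

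Lysosomes degrade what macrophages engulf, and their hydrolases need the acidic lumen that the V-ATPase maintains by pumping protons. Many lysosome and V-ATPase genes carry a CLEAR element, a binding site built around the E-box CACGTG, which is recognised by the related factors TFEB, TFE3 and MITF. H3K4me1 marks enhancers, whether active or not, and H3K27ac marks active enhancers and promoters.

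The H3K4me1 lists held 73049 peaks under LPS and 64758 under PBS, and the H3K27ac lists held 4200 under LPS and 52 under PBS. Depth recovered from the peak values was between 5660000 and 7210000 fragments per library. PBS H3K27ac had the highest estimate, but it rests on only 52 peaks. The median summit rested on 9 fragments in LPS H3K27ac, 11 in PBS H3K27ac and 17 in both H3K4me1 lists. Of 12 macrophage markers, 12 had an LPS and 11 a PBS H3K4me1 peak within 10 kb, compared with 8 and 7 of 20 markers of other cell types. Csf1r, the receptor for the growth factor of macrophages, had 14 LPS and 13 PBS H3K4me1 peaks, the most LPS peaks of the 12. Mertk had the fewest, with 2 and 0. Of the 20 other markers, Cd3e, Epcam and Col1a1 were among those with none, while Klrb1c had 6 and 6 and Elane 5 and 6.

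The E-box was searched in RefSeq promoters (GRCm38.p6), from 250 bases before to 50 after each start. The table held 47 promoters of 38 members and none of Ctsb, Ctsh, Npc1, Atp6v0d2, Atp6v1b2, Atp6v1c1, Atp6v1g1 and Atp6v1h. CACGTG, which reads the same on both strands, was present in 11 of the 47 (23.4%, 95% Wilson interval 13.6 to 37.2%), compared with 7.15% of all 32851 promoters in the table. GTCACGTG, the longer form that contains CACGTG, was searched on both strands and was present in 8 of 47 (17.0%, 8.89 to 30.1%), against 2.25% of all promoters. The Lamp1 promoter held the most E-boxes of any member, with 4, which began 61, 45, 28 and 15 bases before the start. Atp6v0b held 2, at 36 and 18 bases before the start, and Glb1 held 1, at 48. The sequences of these 3 promoters, from 209 to 10 bases before the start, are shown because they carry the element close to the TSS and on different arms of the set (a membrane glycoprotein, a proton pump subunit and a hydrolase). They lie at chr8:13158952-13159151 on the plus strand, chr4:117887339-117887538 on the minus strand and chr9:114400869-114401068 on the plus strand. Capitals mark CACGTG.
Lamp1: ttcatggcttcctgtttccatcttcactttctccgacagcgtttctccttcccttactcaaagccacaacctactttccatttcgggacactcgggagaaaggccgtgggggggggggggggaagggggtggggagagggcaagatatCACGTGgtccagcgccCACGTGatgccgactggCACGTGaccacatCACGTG
Atp6v0b: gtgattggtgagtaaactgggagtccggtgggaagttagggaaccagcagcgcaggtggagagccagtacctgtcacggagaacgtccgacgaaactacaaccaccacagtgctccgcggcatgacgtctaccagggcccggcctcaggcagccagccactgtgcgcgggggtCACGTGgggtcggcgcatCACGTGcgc
Glb1: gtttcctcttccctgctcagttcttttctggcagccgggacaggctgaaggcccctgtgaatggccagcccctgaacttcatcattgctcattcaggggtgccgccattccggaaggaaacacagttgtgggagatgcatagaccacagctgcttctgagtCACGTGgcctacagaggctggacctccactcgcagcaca

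The other members with the E-box were Ctsd, Gla and Mcoln1, with 2 each in the promoter nearest the TSS, and Ctsl, Gaa, Atp6v0d1 and Atp6v1a, with 1 each. Ctsa had it in its other promoter. Among 60 further lysosome genes, 16 of 56 promoters held CACGTG (28.6%, 18.4 to 41.5%).

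After 1 h of LPS, 19 of the 46 genes had an H3K27ac peak within 10 kb of the TSS (41.3%, 95% Wilson interval 28.3 to 55.7%). The same list reached 8.92% of all protein-coding genes and 16.7% of the 9014 genes that had a PBS H3K4me1 peak within 10 kb. Limited to the 38 members with such a PBS H3K4me1 peak, the share was 17 of 38 (44.7%, 30.1 to 60.3%). With a −log10 q of at least 5, it fell to 8 of 46 (17.4%), and that of all genes to 3.30%. Within 1 kb of the TSS, 8 members had an H3K27ac peak (17.4%, 9.09 to 30.7%), against 5.00% of all genes. Limited to genes with PBS H3K4me1, the share was 7 of 38 (18.4%, 9.22 to 33.4%) against 9.29%, which the interval included. Under PBS, 0 of 46 members had an H3K27ac peak in either window (interval up to 7.71%). That list reached only 0.159% of all genes and 0.333% of those with PBS H3K4me1 within 10 kb, and 0.0729% and 0.144% within 1 kb, so the absence of PBS peaks at the members was not distinguishable from that at genes in general. Intervals cover counting error only, and genes are not replicates of a condition.

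H3K4me1 was near almost every member. Within 10 kb, 44 of 46 had an LPS peak (95.7%, 85.5 to 98.8%) against 47.7% of all genes, and 38 had a PBS peak (82.6%, 69.3 to 90.9%) against 41.1%. Within 1 kb, the counts were 25 under LPS (54.3%, 40.2 to 67.8%, against 24.1% of all genes) and 18 under PBS (39.1%, 26.4 to 53.5%, against 15.8%). Among genes that had a PBS H3K4me1 peak within 10 kb, the member shares were closer to the background. An LPS H3K4me1 peak within 1 kb was present at 23 of 38 members (60.5%, 44.7 to 74.4%) against 46.3%, and a PBS peak at 18 of 38 (47.4%, 32.5 to 62.7%) against 38.5%, and both intervals included the background.

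**Figure D1:**
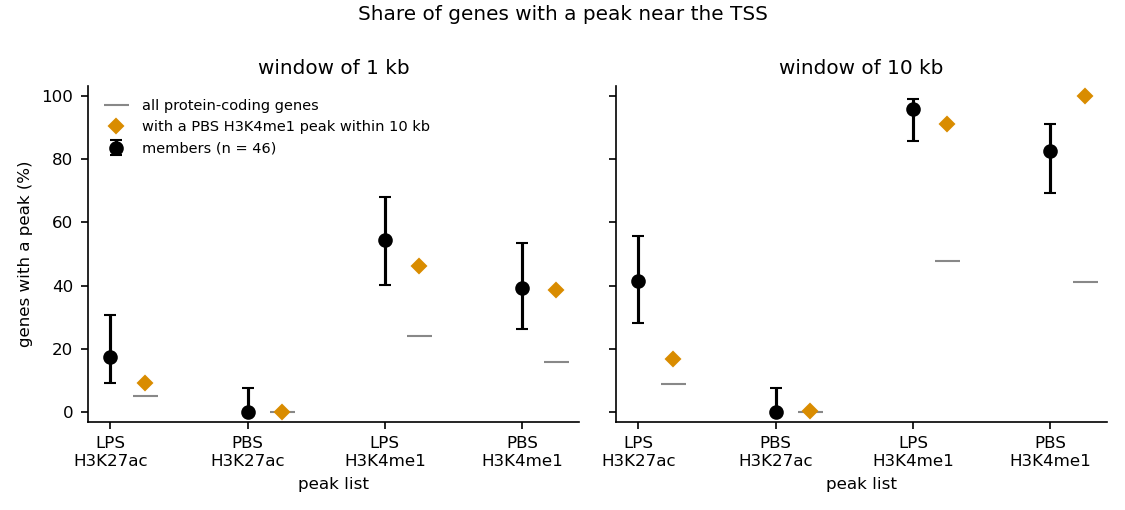
Percentage of genes that had a peak no farther than 1 kb (left) or 10 kb (right) from the TSS in each list. Black points are the 46 lysosome and V-ATPase genes with 95% Wilson intervals, grey dashes all 21951 protein-coding genes and orange diamonds the 9014 with a PBS H3K4me1 peak within 10 kb. The member share of LPS H3K27ac within 10 kb, 41.3%, lies above both backgrounds, whereas LPS H3K4me1 within 10 kb lies above only the first by a wide margin.

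The members also had more H3K4me1 peaks each. The median over all 46 was 5 LPS and 3 PBS peaks within 10 kb, compared with 0 and 0 over all protein-coding genes. Limited to genes with PBS H3K4me1 within 10 kb, it was 5.5 and 4.5 at 38 members and 3 and 2 at the 9014 genes. Because H3K27ac was more frequent at genes with more H3K4me1 peaks, its share was set beside genes with a like number. At genes with 0 PBS H3K4me1 peaks, 2 of 8 members (25%, 7.15 to 59.1%) and 3.49% of all genes had LPS H3K27ac within 10 kb. With 1 to 2 peaks the shares were 3 of 10 (30%, 10.8 to 60.3%) and 11.9%, and with 3 to 4 peaks 4 of 9 (44.4%, 18.9 to 73.3%) and 17.4%. With 5 to 6 peaks they were 4 of 9 (44.4%, 18.9 to 73.3%) and 24.5%, and with 7 or more, 6 of 10 (60%, 31.3 to 83.2%) and 34.5%. The member share was above that of all genes in each of the 5 classes. In 3 of them, those with 1 to 2, 5 to 6 and 7 or more peaks, the member interval reached the share of all genes.

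**Figure D2:**
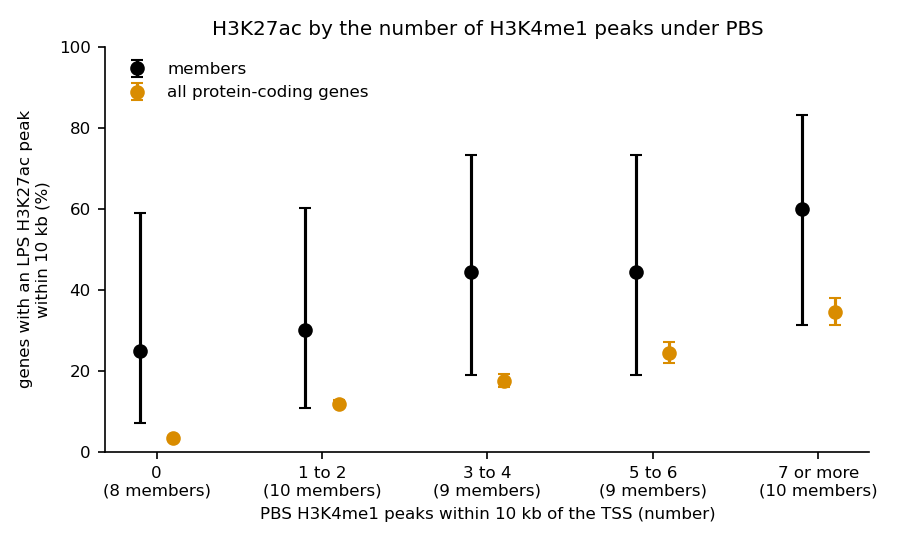
Percentage of genes with LPS H3K27ac no farther than 10 kb from the TSS, by the number of PBS H3K4me1 peaks in the same window. Black points are members and orange points all protein-coding genes, with 95% Wilson intervals, and both rise from left to right, members from 25% to 60% and all genes from 3.49% to 34.5%.

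The 19 acetylated members carried 37 LPS H3K27ac peaks, which were spread unevenly. There was 1 peak at 13 members, 2 at 3 members (Ctsd, Gla and Lamp1) and 5 or more at 3 members. The last 3 were Ctsb with 7, Atp6v0c with 6 and Grn with 5, and together they held 18 of the 37 peaks. Of all protein-coding genes, 1.92% had 2 or more such peaks and 0.0911%, 20 genes, had 5 or more, against 6 of 46 (13.0%) and 3 of 46 (6.52%) among the members. Only 3 genes had 7 peaks, the highest number, namely Ctsb, Clec4d and Mcl1. The 6 genes with 6 peaks included Atp6v0c and its neighbour Amdhd2, whose windows share the same peaks.

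**Figure D3:**
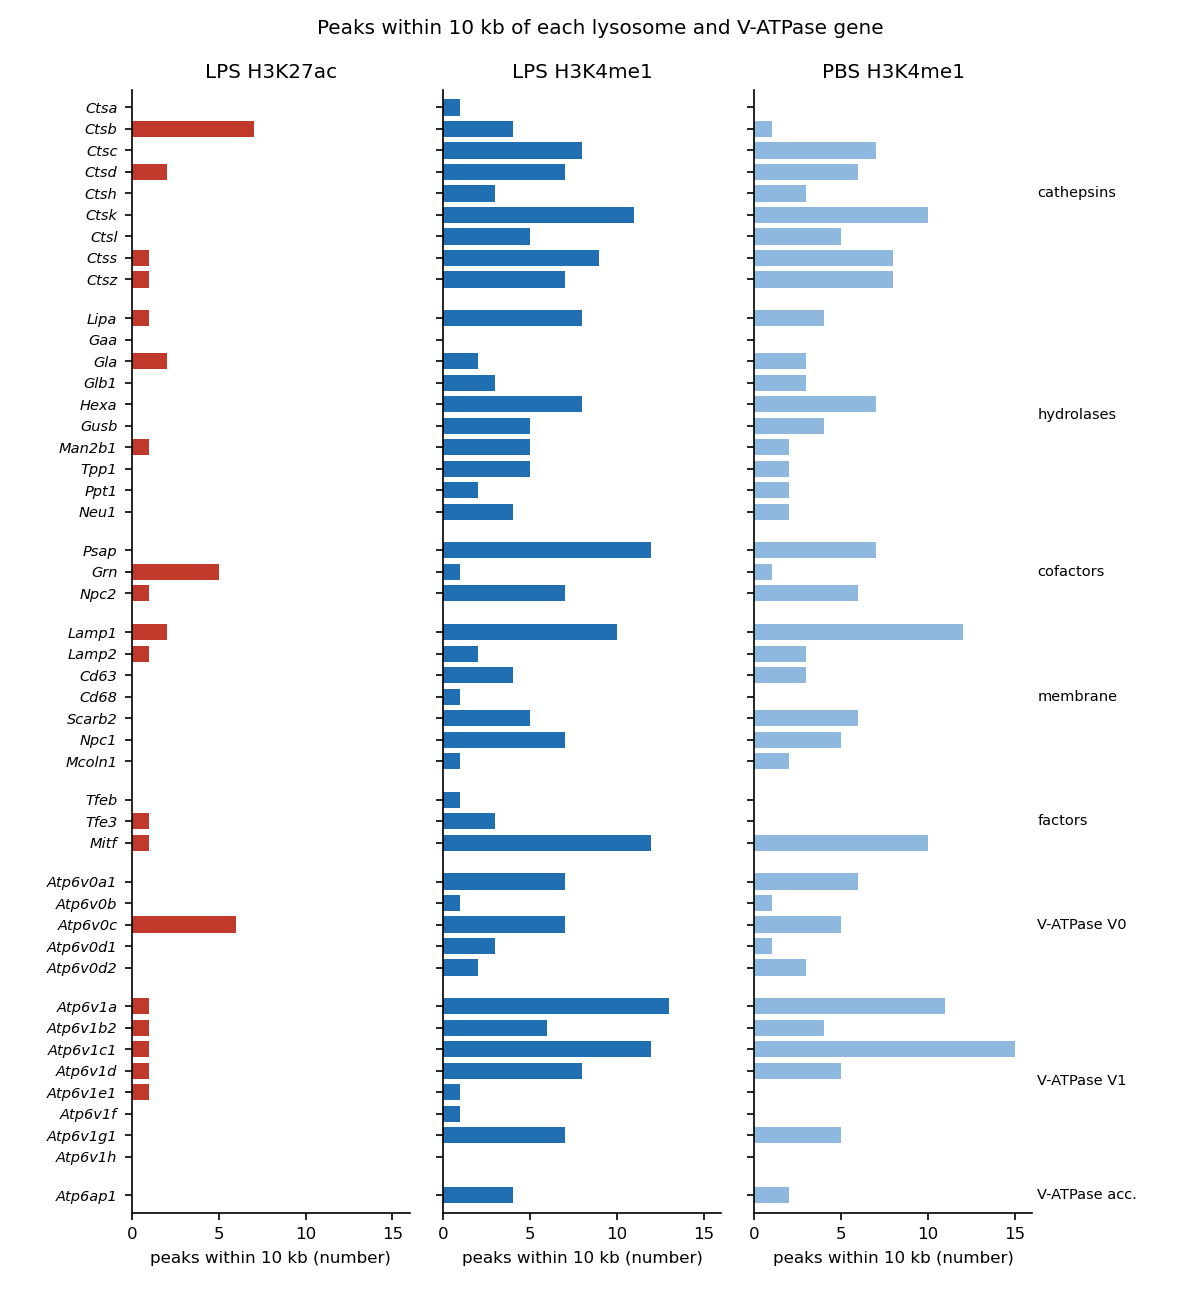
Number of peaks within 10 kb of the TSS of each of the 46 genes, grouped by role, in LPS H3K27ac (left), LPS H3K4me1 (middle) and PBS H3K4me1 (right). H3K27ac is concentrated at Ctsb (7 peaks), Atp6v0c (6) and Grn (5), while H3K4me1 peaks are spread over nearly all genes, up to 13 at Atp6v1a under LPS and 15 at Atp6v1c1 under PBS.

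Ctsb encodes cathepsin B, a cysteine protease of the lysosome. Its 7 H3K27ac peaks all had their summit downstream of the TSS, between 1996 and 9376 bp, and all lay in introns of Ctsb. The strongest was chr14:63130294-63130769, which stood at 12 times the local background with a −log10 q of 16, and had 19 fragments at a summit 8199 bp downstream. It ranked 17 of the 4200 LPS H3K27ac peaks by −log10 q. Its flanks at 6380, 7220, 8587 and 9376 bp had summits of 13, 14, 14 and 15 fragments, and the peaks at 1996 and 2382 bp had 9 each. The inner 4 of these peaks, from 6380 to 8587 bp, overlapped LPS H3K4me1 peaks and none overlapped a PBS H3K4me1 peak. Under PBS, the only H3K4me1 peak of Ctsb within 10 kb had its summit 10217 bp downstream and 18 fragments. Thus, this intronic stretch was listed for both marks under LPS and for neither under PBS. For H3K27ac, the PBS list held only 52 peaks and reached 0.159% of all genes, so the lack of a PBS peak does not set Ctsb apart. The matched LPS H3K4me1 peaks were modest, with summits of 11, 15 and 15 fragments. The 201 bases around the strongest summit (chr14:63130561-63130761, plus strand) and around the summit at 6380 bp (chr14:63128742-63128942, plus strand) are shown. They are the centre and the edge of the stretch with the highest H3K27ac −log10 q of the set. Capitals mark GAGGAAG or its reverse complement, a core bound by PU.1, the lineage factor of macrophages. The first sequence held no match.
Ctsb at 8199 bp: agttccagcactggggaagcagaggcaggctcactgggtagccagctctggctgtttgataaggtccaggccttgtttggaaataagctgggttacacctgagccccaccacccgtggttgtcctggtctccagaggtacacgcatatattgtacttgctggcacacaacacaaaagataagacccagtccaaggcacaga
Ctsb at 6380 bp: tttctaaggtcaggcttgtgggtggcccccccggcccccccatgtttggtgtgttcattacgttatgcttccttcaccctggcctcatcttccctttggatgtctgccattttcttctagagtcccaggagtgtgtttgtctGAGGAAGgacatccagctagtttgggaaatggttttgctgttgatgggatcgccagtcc

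The other acetylated cathepsins had 1 or 2 peaks each, with 8 to 11 fragments at the summit, compared with 9 to 19 at Ctsb. Of the 9 cathepsins, 0 had H3K27ac within 1 kb (interval up to 29.9%), which is not distinguishable from the 5.00% of all genes. Ctsd, the main aspartic protease of the lysosome, had 2 intergenic peaks with summits 5502 and 9927 bp upstream and 9 and 11 fragments, both overlapping H3K4me1 peaks of each treatment. The LPS H3K4me1 peak that held them, chr7:142392156-142398642, was 1 of the 5 strongest LPS H3K4me1 entries of the set, with a −log10 q of 20.4. Ctss, which trims the invariant chain of MHC class II, had 1 H3K27ac peak 8091 bp upstream with 9 fragments, again overlapping H3K4me1 of both treatments. Ctsz, a carboxypeptidase, had 1 in an intron, 1959 bp downstream with 8 fragments, in neither H3K4me1 list. Ctsa, Ctsc, Ctsh, Ctsk and Ctsl had none within 10 kb. H3K4me1, whose lists are far longer, lay within 1 kb of 8 of the 9 cathepsins under LPS (88.9%, 56.5 to 98%, against 24.1% of all genes) and 6 under PBS (66.7%, 35.4 to 87.9%, against 15.8%). Among genes with a PBS H3K4me1 peak within 10 kb, the shares were 46.3% under LPS and 38.5% under PBS. The cathepsin interval included the PBS value and not the LPS value.

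Among the other hydrolases, 3 of 10 had LPS H3K27ac within 10 kb (30%, 10.8 to 60.3%), against 8.92% of all genes. The interval included the 16.7% found among genes with a PBS H3K4me1 peak within 10 kb. Lipa, the acid lipase that frees cholesterol from engulfed lipoproteins, had 1 peak in an intron, 6187 bp downstream with 7 fragments, which overlapped PBS but not LPS H3K4me1. Gla, α-galactosidase A, had 2 peaks, at 626 bp upstream with 6 fragments and 991 bp downstream with 8, and both also lay within 1 kb of the TSS of Hnrnph2. The single peak near Man2b1, a lysosomal mannosidase, had its summit 1989 bp upstream with 10 fragments and overlapped the TSS of Wdr83. Gaa, Glb1, Hexa, Gusb, Tpp1, Ppt1 and Neu1 had none, and for Glb1 the nearest LPS H3K27ac peak was 598953 bp away.

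Of the 3 lumenal cofactors, Grn and Npc2 had LPS H3K27ac within 10 kb (66.7%, 20.8 to 93.9%), against 8.92% of all genes. Grn encodes progranulin, which is cleaved to granulins in the lysosome. Its 5 H3K27ac peaks spanned 2913 bp from 896 bp upstream to 2017 bp downstream, with summits of 13, 13, 14, 10 and 13 fragments in that order. The strongest, chr11:102431252-102431561 in an intron, had a deposited fold enrichment of 7.86 (−log10 q 7.98). None of the 5 overlapped H3K4me1, and Grn had only 1 H3K4me1 peak within 10 kb in either treatment, with summits 6297 bp upstream under LPS and 5297 bp upstream under PBS. Npc2, which binds cholesterol in the lumen, had 1 peak 8573 bp downstream in an intron, with 8 fragments and overlapping H3K4me1 of both treatments. Psap, the precursor of the saposins, had 12 LPS and 7 PBS H3K4me1 peaks but no H3K27ac peak closer than 859167 bp.

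Among the 7 membrane proteins, the glycoproteins Lamp1 and Lamp2, which line the lysosomal membrane, had H3K27ac within 10 kb. That share (28.6%, 8.22 to 64.1%) had an interval that included the 8.92% of all genes. Lamp1 had 1 peak in an intron 677 bp downstream with 12 fragments and a −log10 q of 5.54, and another 4280 bp upstream with 9 fragments. The upstream one overlapped H3K4me1 of both treatments and the downstream one neither list. Lamp2 had 1 peak in an intron 378 bp downstream with 7 fragments. Cd63, Cd68, Scarb2, Npc1 and the calcium channel gene Mcoln1 had none within 10 kb.

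The transcription factor genes differed from each other. Tfe3 had 1 H3K27ac peak, 374 bp downstream of the TSS with 10 fragments, 3 LPS H3K4me1 peaks with summits of 10, 10 and 11 fragments and no PBS H3K4me1 peak. Tfeb had no H3K27ac peak within 10 kb, 1 LPS H3K4me1 peak (summit 2769 bp downstream, 15 fragments) and no PBS peak from its 5′ end. Mitf had 1 H3K27ac peak in an intron 9573 bp downstream, with 9 fragments and overlapping H3K4me1 of both treatments, among 12 LPS and 10 PBS H3K4me1 peaks. Tfeb and Mitf use many start sites, and when any TSS of a coding transcript was counted, Tfeb did have a PBS H3K4me1 peak within 10 kb and Mitf within 1 kb.

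In the V-ATPase, 6 of 14 genes had LPS H3K27ac within 10 kb (42.9%, 21.4 to 67.4%), compared with 13 of the 32 others (40.6%, 25.5 to 57.7%). The share of all genes was 8.92%. Atp6v0c, the proteolipid of the proton-carrying ring, was the only one of 5 V0 genes (20%, 3.62 to 62.4%, which includes the share of all genes). Its 6 peaks ran from 2413 bp upstream to 3979 bp downstream. The first of them by strength, chr17:24169493-24169651, lay in the 5′ untranslated region with its summit 88 bp downstream of the TSS. It had 25 fragments, the most at any H3K27ac summit of the set, and ranked 62 of 4200 with a −log10 q of 11.6. The other 5 summits had 11 to 14 fragments. The pair at 2081 and 2413 bp upstream overlapped LPS but not PBS H3K4me1, and the other 4 overlapped neither.

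Of the 8 V1 genes, 5 had 1 H3K27ac peak each within 10 kb (62.5%, 30.6 to 86.3%), against 8.92% of all genes. The catalytic subunit gene Atp6v1a had its peak 9984 bp upstream with 8 fragments, in an intron of Naa50 and overlapping LPS but not PBS H3K4me1. Atp6v1b2 had one 1722 bp downstream with 9 fragments, Atp6v1c1 543 bp with 9, Atp6v1d 702 bp with 10 and Atp6v1e1 2847 bp with 7, all in their own introns and outside H3K4me1 of either treatment. The Atp6v1d peak was also 814 bp from the TSS of Eif2s1. Atp6v1f, Atp6v1g1, Atp6v1h and the accessory gene Atp6ap1 had none.

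**Figure D4:**
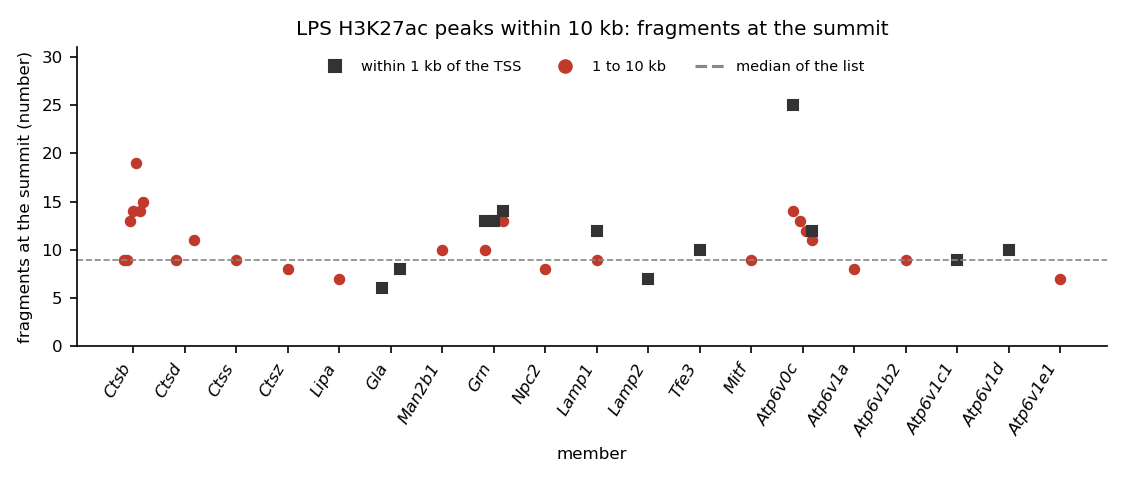
Fragments at the summit of each of the 37 LPS H3K27ac peaks within 10 kb of a member TSS, by gene. Dark squares are peaks within 1 kb and red circles those farther away, and the dashed line is the median of the whole list, 9 fragments. The highest summit is at Atp6v0c (25) and the next at Ctsb (19), while all 13 genes with 1 peak lie at 7 to 10.

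Position and H3K4me1 overlap separated the 37 peaks into classes. Of these, 12 were within 1 kb of the member TSS, 1 (near Man2b1) was within 1 kb of another TSS and 24 were farther from any protein-coding TSS. The summit was in an intron of the member itself for 22. Of the 12 near the TSS, 0 overlapped an H3K4me1 peak of either treatment (interval up to 24.2%), and of the 25 others 14 did (56.0%, 37.1 to 73.3%). The corresponding shares over all LPS H3K27ac peaks were 19.1% of 1059 within 1 kb of a protein-coding TSS and 46.4% of 839 between 1 and 10 kb. Each member interval included the corresponding share, so the member peaks were not distinguishable from all such peaks in either class. Among the 14, 6 were in both H3K4me1 lists, 7 in LPS only (4 at Ctsb, 2 at Atp6v0c and 1 at Atp6v1a) and 1, at Lipa, in PBS only. The 12 peaks near the start, which were in neither H3K4me1 list, lay at only 8 genes. These were Atp6v0c, Grn, Lamp1, Lamp2, Tfe3, Gla, Atp6v1c1 and Atp6v1d.

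**Figure D5:**
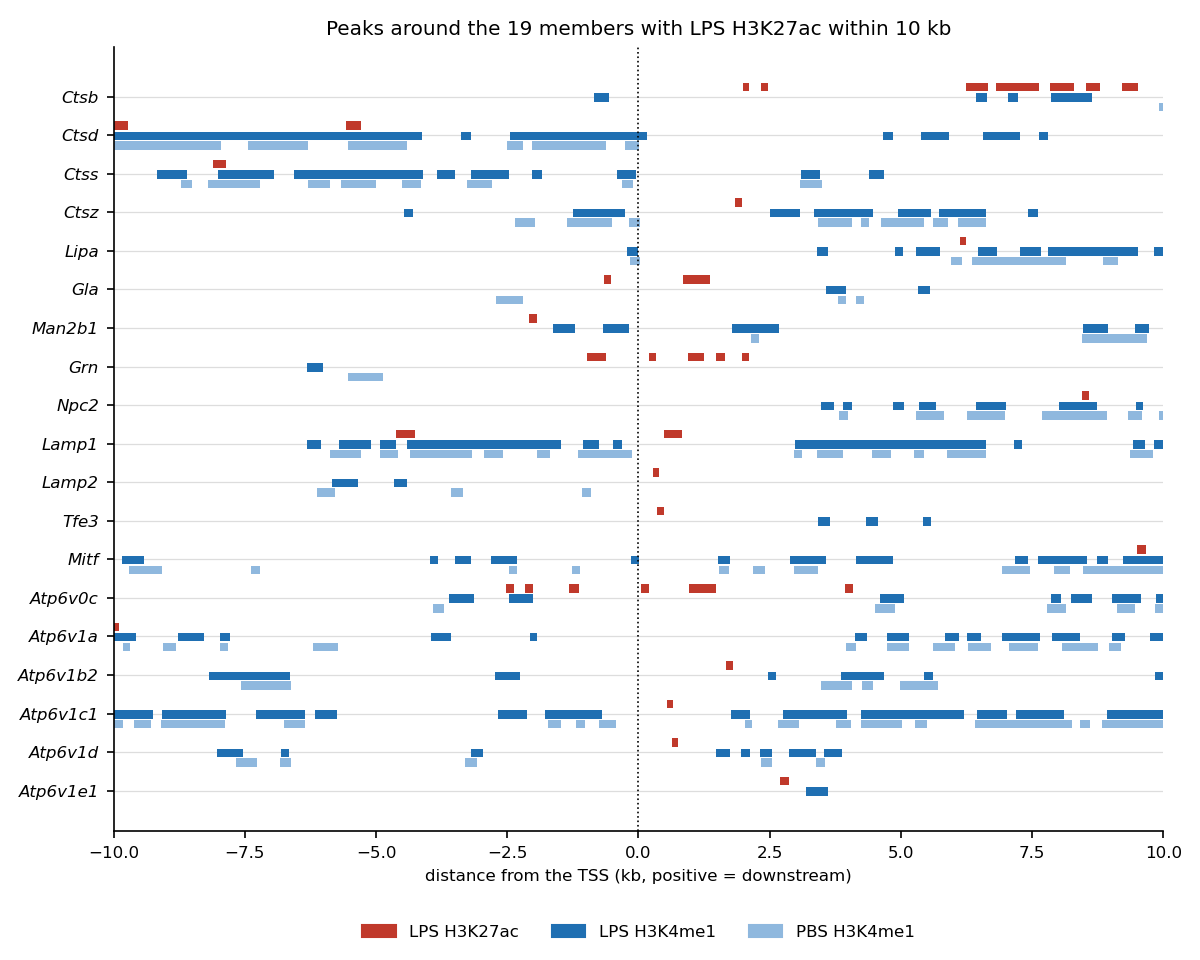
Peaks within 10 kb of the TSS of the 19 members with LPS H3K27ac, drawn to scale as distance from the TSS in kb (positive is downstream) and cut at 10 kb. Red bars are LPS H3K27ac, dark blue LPS H3K4me1 and light blue PBS H3K4me1. The cluster at Ctsb between 6 and 10 kb has dark blue but no light blue beneath it, and the red bars near the dotted line at 0 have no blue bar at the same position.

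H3K4me1 within 1 kb of the TSS was about as frequent at V-ATPase genes as at all genes, and its share of the other members was above that of all genes. Under LPS, 3 of 14 V-ATPase genes had a peak (21.4%, 7.57 to 47.6%), namely Atp6v1c1, Atp6v1g1 and Atp6ap1, and 22 of 32 others did (68.8%, 51.4 to 82.0%), beside 24.1% of all genes. Under PBS, the same 3 V-ATPase genes had a peak (21.4%, 7.57 to 47.6%) and 15 of 32 others did (46.9%, 30.9 to 63.6%), beside 15.8% of all genes. The intervals of the V-ATPase and the other members overlapped under PBS and not under LPS, and the difference was not tested. The V-ATPase share under LPS depended on the TSS used. Counted from any TSS of a coding transcript, Atp6v0a1, Atp6v1e1 and Atp6v1h also had LPS H3K4me1 within 1 kb. Ctsl and Tfeb were gained among the others, and the share of all genes was 28.8%. Under PBS, only Ctsl, Tfeb and Mitf were gained. Counted from the 5′ end, the 5 V0 genes had no H3K4me1 within 1 kb in either list (0 of 5, interval up to 43.4%), as did 71.0% of all genes, and each had some within 10 kb.

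Between treatments, 16 members had H3K4me1 within 1 kb in both lists (34.8%, against 10.9% of all genes), 9 in LPS only (19.6%, against 13.2%), 2 in PBS only (4.35%, against 4.92%) and 19 in neither (41.3%, against 71.0%). The 9 with LPS only were Cd68, Ctsa, Ctsb, Man2b1, Mcoln1, Mitf, Neu1, Psap and Tpp1. The peak of Cd68, a marker of macrophage lysosomes, had its summit 136 bp upstream with 14 fragments, and that of Ctsa, which protects β-galactosidase and the sialidase, 38 bp downstream with 12. That of the sialidase gene Neu1 was 134 bp upstream with 17, that of the peptidase gene Tpp1 230 bp upstream with 19, and that of Mitf 51 bp upstream with 17. The remaining 4, of which Psap and Mcoln1 had peaks that reached into the window with a summit outside it, were Man2b1 at 354 bp upstream with 25 fragments, Ctsb at 702 bp upstream with 11, Psap at 1112 bp upstream with 24 and Mcoln1 at 1612 bp downstream with 17. The Mcoln1 peak overlapped a PBS H3K4me1 peak that lay outside the window, so its place among the 9 rests on the extent of the wider LPS peak. The 2 with PBS only were Hexa, a β-hexosaminidase subunit, with its summit 48 bp upstream and 23 fragments, and Lamp2 at 976 bp upstream with 13. These summits had 11 to 25 fragments, around the median of 17 in both H3K4me1 lists.

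Within 10 kb, 38 members had H3K4me1 in both lists (82.6%, against 37.3% of all genes), 6 in LPS only (13.0%, against 10.3%), 0 in PBS only (against 3.74%) and 2 in neither (4.35%, against 48.6%). The 6 were Atp6v1e1, Atp6v1f, Cd68, Ctsa, Tfe3 and Tfeb, of which only Tfe3 had more than 1 peak. The summits at Atp6v1e1, 3261 bp downstream, and Atp6v1f, 6363 bp downstream, had 13 and 16 fragments. The 2 in neither list, Gaa, the acid α-glucosidase, and Atp6v1h, a regulatory V1 subunit, also had no H3K27ac peak within 10 kb. Counted from any TSS of a coding transcript, Atp6v1h had H3K4me1 within 10 kb in both lists.

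Where a member peak was present in both H3K4me1 lists, its height hardly differed in the median. Each of 143 LPS peaks was set against the highest PBS peak that it overlapped, so the same PBS peak could recur. The log2 ratio of LPS to PBS summit fragments, each scaled to the depth of its library, had a median of 0.04 and quartiles of −0.22 and 0.41. Single ratios ran from −1.32 at Lamp1 to 1.10 at Ctss, but the summits of a pair need not coincide. The Lamp1 pair had its LPS summit 1006 bp and its PBS summit 287 bp upstream. For the Ctss pair they were 9124 and 8708 bp upstream. Neither extreme is thus the height of a single site under both treatments. Over all 44676 pairs of the lists the median was also 0.04. Of the 190 PBS H3K4me1 peaks at members, 159 had an LPS counterpart (83.7%, 77.8 to 88.3%), against 69.1% of PBS peaks within 10 kb of any protein-coding TSS. Of the 235 LPS peaks, 143 had a PBS counterpart (60.9%, 54.5 to 66.9%), against 53.8%. Over all peaks of each list, at any distance from a TSS, the shares were 73.1% for PBS and 61.2% for LPS. The member interval for LPS included the latter.

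The strongest H3K4me1 peaks of the set were present under both treatments. Under LPS they were led by an intron peak of Ctsh, an aminopeptidase-type cathepsin, at chr9:90059457-90061502, which had 33 fragments and a −log10 q of 21.2 (rank 1089 of 73049). Atp6v1c1 (20.9), Ctsd (20.4), Npc1 (19.8), the gene of a cholesterol exporter, and Psap (17.5) followed in −log10 q. Under PBS the highest was upstream of Atp6v1c1 at chr15:38652831-38654058, which had 41 fragments and a −log10 q of 24.6 (rank 173 of 64758). The next genes by −log10 q were Mitf (17.8), Atp6v0c (16.5), Lamp1 (16.2), and Ctsc and Scarb2 at 14.8 each. Each of these 11 peaks overlapped a peak of the other treatment.

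The letters at the H3K27ac summits were compared with those at other H3K27ac peaks. Within 100 bases of the summit, CACGTG was at 0 of the 37 member peaks (interval up to 9.41%) and at 2.74% of the 1898 LPS H3K27ac peaks within 10 kb of any protein-coding TSS. GAGGAAG was at 8 of 37 (21.6%, 11.4 to 37.2%) and at 9.80%. At H3K4me1 summits of members it was no more frequent than near any TSS, at 11.5% (8.02 to 16.2%) against 11.9% under LPS and at 7.37% (4.44 to 12%) against 13.0% under PBS. The 8 H3K27ac peaks with GAGGAAG were 2 at Ctsb, 2 at Atp6v0c, and 1 each at Grn, Ctsz, Lamp1 and Lamp2. The AP-1 motif TGANTCA was at 1 of 37 (2.70%), the Lipa peak, and at 5.64%, and the NF-κB motif, GGG and TTTCC separated by any 2 bases, at 0 of 37 and 0.948%. All were searched on both strands and none contains another. Of the 11 members with CACGTG in a promoter, 4 had LPS H3K27ac within 10 kb (Ctsd, Gla, Lamp1 and Atp6v1a), and of the 27 without it 12 did. The share of all genes was 8.92%, and the difference between the 2 groups was not tested.

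A wider set of lysosome genes had a lower H3K27ac share within 10 kb, with an interval that overlapped that of the members, and a similar one within 1 kb. Of 60 such genes, 13 had LPS H3K27ac within 10 kb (21.7%, 13.1 to 33.6%) and 10 within 1 kb (16.7%, 9.31 to 28.0%), against 8.92% and 5.00% of all genes. The 13 were Cd164, Clcn7, Cln3, Ctso, Flcn, Lamtor1, Lamtor3, Laptm4a, Laptm5, M6pr, Slc15a3, Tmem175 and Tmem192, of which the chloride-proton exchanger gene Clcn7 had the most peaks, 3. LPS H3K4me1 was within 10 kb of 52 of the 60 and PBS H3K4me1 of 51, against 47.7% and 41.1% of all genes.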

How the data were processed

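CUT&RUN peak lists of 4 libraries (LPS and PBS, H3K4me1 and H3K27ac) were used, and the 2 IgG libraries were not analysed here. Per the study's methods and processing notes, the authors trimmed the reads, mapped the pairs with Bowtie2 2.4.4 (build GRCm38), removed blacklisted regions and ran MACS2 2.2.7.1 on each library, without pooling. Each deposited score is a rounded q-value and was not used. The deposited fold enrichment, the −log10 p and the −log10 q are the authors' values, and were ranked within a list only. Fold enrichment was read as scaled summit fragments over local background, with a constant added to both. It is therefore smaller than the plain ratio of the 2. The smallest −log10 q in each list was between 2.00 and 2.09. Summit fragments and depth were recovered from fold enrichment and p, which returned the deposited p for 100% of peaks, a procedure first tested on simulated data. It assumes a Poisson p against a local control level. Whether the IgG libraries supplied that control is not given in the sources used here, so fragments and depth are estimates and local background is that of the peak caller. Intervals cover counting error only.

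The TSS was the 5′ end of the gene in GENCODE M21. A peak counted when at least 1 bp lay in the window, and peaks in different lists were counterparts when they shared at least 1 bp. RefSeq starts differed from that 5′ end by 8356 bp for Cd63, 1176 bp for Scarb2 and 946 bp for Atp6v0a1. Shares carry 95% Wilson intervals beside the share of all protein-coding genes. The members and gene lists were chosen with earlier results of these data known. Named were members with H3K27ac within 10 kb, with H3K4me1 in only 1 list, with no peak, with the 5 highest H3K4me1 −log10 q per list, and the 3 factors. Other members were named as lacking a peak, or for a motif, after their values were seen. Python 3.11.15, pandas 2.3.3, SciPy 1.17.1 and pysam 0.24.0 were used. Alternatives comprised a −log10 q limit, other windows, other TSSs, summit positions, list length, overlap and motif form.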

Additional observations from a re-analysis of the deposited data

How the results depend on the processing

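No paired analysis was possible because each treatment and antibody had a single library. Of 51 alternative values, 38 moved by less than the main interval and 13 by more. The 38 include every PBS H3K27ac setting, where the share stayed at 0% and, with so few peaks listed, could hardly move. The member share of LPS H3K27ac and of both H3K4me1 lists was above the share of all genes in 35 of 35 comparisons. These include the main values, reuse the same genes and peaks, and leave out the settings limited to genes with PBS H3K4me1. A −log10 q of at least 5 lowered LPS H3K27ac within 10 kb to 17.4% (8 of 46, against 3.30% of all genes) and within 1 kb to 8.70%, and LPS H3K4me1 to 80.4% and 37.0%. A 5 kb window gave 28.3% for LPS H3K27ac, a 25 kb window 93.5% for PBS H3K4me1, and a 2 kb window 69.6% for LPS H3K4me1 around the TSS. Restricted to genes with PBS H3K4me1, both H3K4me1 shares within 10 kb were 100%, for PBS by construction. An overlap of 50% of the member peak left counterparts for 40.4% of LPS and 70.0% of PBS H3K4me1 peaks, and the q limit left 54.3% and 69.4%. With peaks within 1 kb of another TSS removed, a setting chosen after seeing the data, 16 of 46 members (34.8%) kept LPS H3K27ac within 10 kb, without Gla, Man2b1 and Atp6v1d. The classes by number of H3K4me1 peaks were also chosen after seeing the data. With 6 to 14 fragments at most H3K27ac summits, and 52 PBS peaks in all, a site absent from a list may lie below its limit of detection.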
